A study of Mus musculus with 18 samples.

Results

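The comparison of ASCs with AFSCs, the primed cells they were made from, uses 6 of the 18 mouse RNA-seq samples, 3 labelled ASC and 3 labelled AFSC, chosen by these labels and by nothing that was measured. Of 35773 genes in the count tables, 16901 had at least 10 counts in at least 3 of the 18 samples and were tested. AFSCs (activin A and bFGF stem cells) came from blastocysts grown on fibronectin in N2B27 with activin A and bFGF, without serum replacement or feeder cells. ASCs (advanced pluripotent stem cells) were made by moving AFSCs to ABCL medium, which is N2B27 with activin A, BMP4, the GSK3 inhibitor CHIR99021 and LIF, so that activin A stayed, bFGF went and the other 3 factors were added. The methods describe this for AFSCs with GOF-GFP, an Oct4 reporter that lacks the proximal enhancer, from which GFP-positive colonies were picked, but the study also had a Stella-GFP line and the labels do not say which line was sequenced. Such a selection cannot be told apart from the change of medium. Nor can a difference of line or clone, since the labels do not link the sequenced ASCs to the sequenced AFSCs. Both groups are wild type and labelled with the strain 129S2/SvPasCrl, although the methods describe a cross of 129/sv females with reporter males of mixed background. The labels do not say whether the 3 samples of a group came from separate lines or cultures. The p-values of the count tests rest on the spread within groups, estimated over all 18 samples together, and this spread may be technical. The other groups are used here for 2 further comparisons. These are ESCs in 2i/LIF against EpiSCs, and ESC-ASCs, described as ESCs moved to ABCL medium, against ESCs. Neither shares a sample with the 6.

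Mouse pluripotent cells are held in different states by the signals in their medium. LIF acts through the receptor pair LIFR and gp130 on STAT3 and sustains the naive state of the preimplantation epiblast. Canonical Wnt signalling, which CHIR99021 imitates by stabilising beta-catenin, relieves repression by TCF7L1, and BMP4 acts through SMAD1 and SMAD5 on genes such as the Id family. Activin A and FGF, by contrast, hold cells in the primed state of the postimplantation epiblast, in which Otx2, Fgf5 and Dnmt3b are expressed and female cells carry 1 inactive X chromosome.

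Total counts per sample were 7165615 to 8148294 in ASCs, 7046111 to 7490257 in AFSCs and 4961934 to 18071600 in the other 12 samples. The samples numbered 1 stood apart from the other two of their group. In AFSC replicate 1, 14.4% of counts came from mitochondrially encoded genes, against 1.51% and 1.92% in AFSC replicates 2 and 3, and the share was 3.48% in ASC replicate 1 against 1.61% and 1.43%. Results that turn on these samples are given with and without them. The labelled states were checked against markers. Summed over the 21 tested genes of the naive list, levels were 28810 to 39130 normalised counts per kb in ASCs and 679.1 to 727.8 in AFSCs, and summed over the 20 tested formative and primed genes they were 947.1 to 1004 and 4409 to 5401. A normalised count per kb is a count divided by the library's size factor and the gene's exonic length, and every level below is on this scale unless it is called a count.

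ABCL medium was accompanied by a change in a large part of the transcriptome. By the quasi-likelihood test of edgeR, adjusted by Benjamini-Hochberg, 3829 genes (22.7% of those tested) were higher in ASCs and 2830 (16.7%) were lower, where a gene was called at an adjusted p under 0.05 and a log2 fold change beyond 1. In 6440 of these 6659 genes the 3 ASC samples did not overlap with the 3 AFSC samples, as was so in 62.6% of all genes tested. With the study's stricter limits, by which the log2 fold change passes 2 and one group's mean log2 level passes 3, 1600 genes (9.47%) were strongly higher and 791 (4.68%) strongly lower. The median log2 fold change over all tested genes was 0.02. Gains from nothing were far more common than losses to nothing, because 329 genes had no count in any AFSC sample and at least 10 in each ASC sample, and 15 genes showed the reverse. Among 14512 protein-coding genes 3148 were higher and 2422 lower, and among 1704 lncRNAs 504 and 313.

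The largest gains were genes with no or almost no counts in AFSCs. Klhl22 (chromosome 16, 17759618 to 17793382 on GRCm38), an adaptor of a ubiquitin ligase, had levels of 177, 218 and 212 in ASCs and 0 in each of the AFSC samples. It was at least 985-fold higher, taken against a floor of 3 counts over the AFSC group. Every sample outside the AFSC group had counts of Klhl22, with 38, 56 and 55 in the primed EpiSCs. Its absence was thus particular to AFSCs within this series. Ooep (chromosome 9, 78376109 to 78378725), which encodes a subunit of the oocyte's subcortical maternal complex, was at least 877-fold higher. Rpl10l, a retrogene copy of a ribosomal protein gene used in the male germline, was at least 728-fold higher. The other genes among the 12 largest gains were the naive gene Tcl1, the germ cell gene Dazl and 7 near-identical genes in a cluster on chromosome 10 (Gm21293, Gm6763, Gm8764, Gm21304, Gm21312, Gm20765 and Gm4340). The tables count a fragment that maps to several places at each of them, so these 7 share their reads, and Gm4340 stands for them at 2809, 2494 and 2425 in ASCs and 0, 0.888 and 0 in AFSCs.

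The largest losses were led by Fgf5 (chromosome 5, 98254184 to 98277030), the growth factor that marks the postimplantation epiblast. Its levels were 0.863, 0.83 and 0.439 in ASCs and 399, 621 and 586 in AFSCs, and the log2 fold change was -9.49 ± 0.31 (SE; adjusted p = 1.52e-13). Fgf8, an FGF of the primitive streak and the last of the 12, had 2.4, 6.92 and 5.69 in ASCs and 776, 442 and 720 in AFSCs (log2 fold change -7.01 ± 0.33). Alox15, a lipoxygenase, had levels of 3.08, 2.12 and 1.79 in ASCs and 336, 365 and 328 in AFSCs, and Grm6, a metabotropic glutamate receptor, had 3 counts in all ASC samples together and 913 in AFSCs, a ratio of 332 (113 to 1611) (95% exact interval, counting error only). Genes with no count in any ASC sample were Gm12660, Glyatl3, Cyp4f15, the interferon-inducible GTPase Iigp1, Tmem100 and Gm28502, which were at least 62.4, 62.5, 42.5, 33.5, 25.6 and 16.4-fold lower. 2310007B03Rik and Klhl4 completed the 12 and had 2 counts each over the ASC samples, with ratios of 275 (75.6 to 2273) and 199 (54.6 to 1648).

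**Figure D1:**
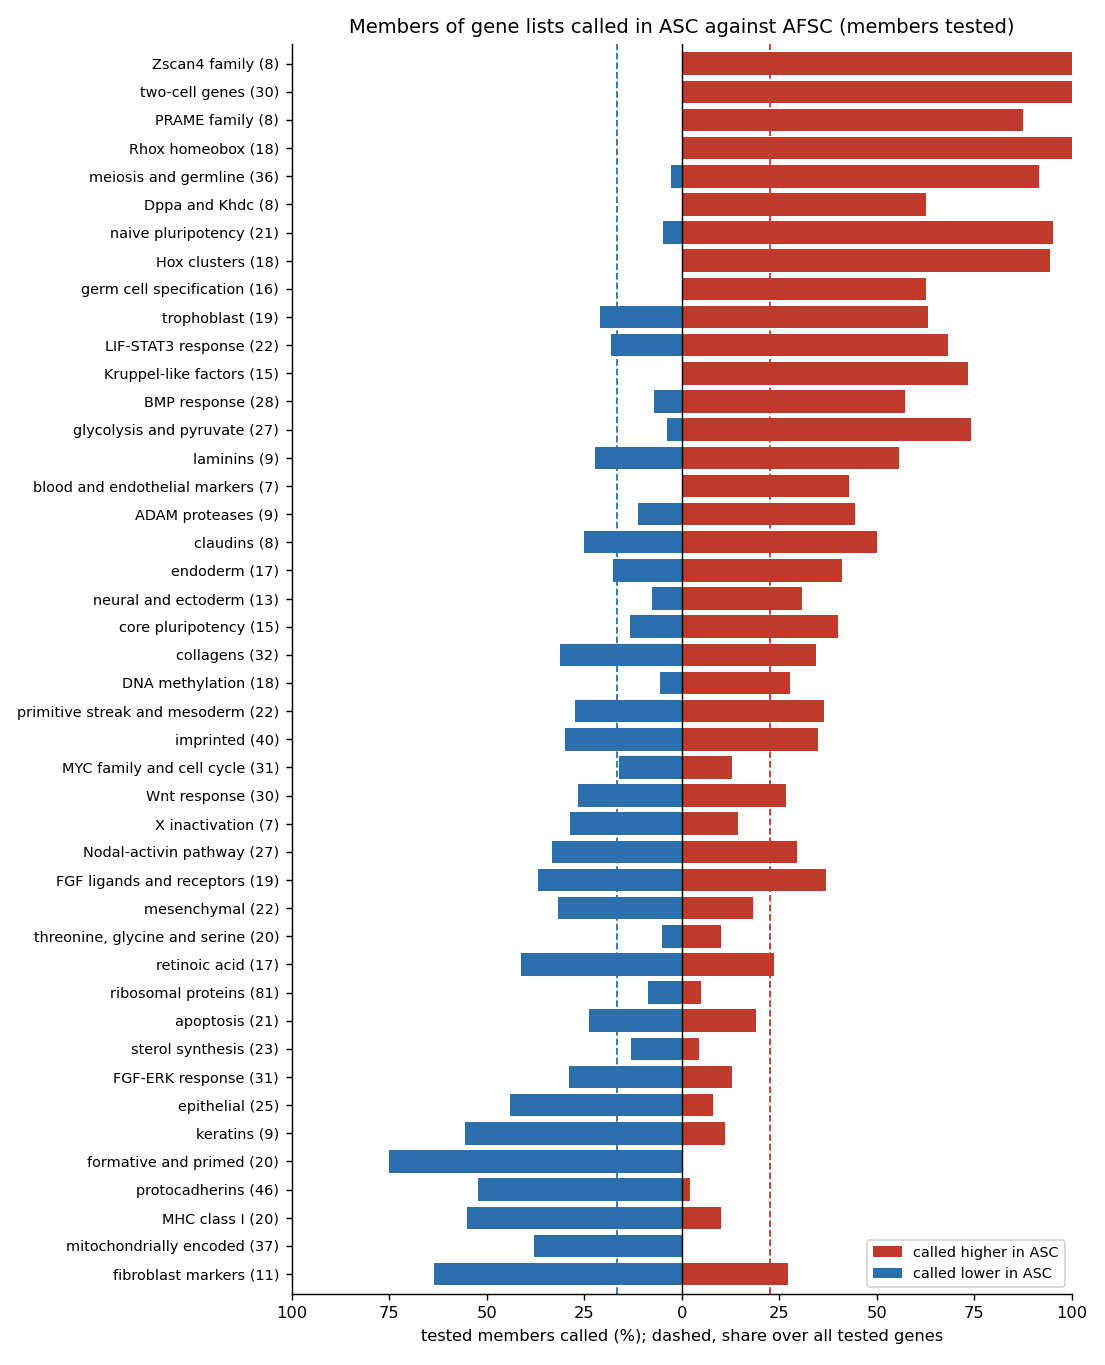
Bars give, for each gene list, the percent of its tested members called higher (right) or lower (left) in ASCs, with the number of members tested in brackets and dashed lines at the 22.7% and 16.7% found over all genes. Lists are ordered by their median log2 fold change, and two-cell, Rhox, meiosis, naive and Hox genes are among those at the gaining end. Fibroblast markers, mitochondrially encoded genes, MHC class I genes, protocadherins and formative and primed genes stand at the losing end. The median of the mitochondrially encoded genes was 0.41 without AFSC replicate 1.

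Genes that respond to BMP were mostly higher in ASCs, and 1 listed BMP gene, Grem1, did not pass the filter on counts. In the Wnt and LIF lists described next, 3 and 2 genes did not pass it. Of 28 tested genes of this list, 16 were higher, 2 were lower and 10 were not called, with a median log2 fold change of 1.69 against 0.02 over all genes. Id1, an inhibitor of basic helix-loop-helix factors and a direct SMAD target, had levels of 222, 397 and 377 in ASCs and 38.3, 25.9 and 30.4 in AFSCs, with no overlap (log2 fold change 3.37 ± 0.28, adjusted p = 6.02e-09). Id3 had levels of 348, 603 and 556 in ASCs and 86.5, 95.7 and 98.3 in AFSCs (2.40 ± 0.20), and Id2 and Id4 rose by 1.56 and 4.50 on the log2 scale. In bulk RNA a larger share of cells expressing a gene and more RNA per cell cannot be told apart. The homeobox gene Msx2 had 28.6, 39.3 and 40.5 in ASCs and 0.411, 0.353 and 0.948 in AFSCs (5.83 ± 0.44), and Gata2, a zinc finger factor of extraembryonic and mesodermal lineages, had 33, 31.7 and 34.1 in ASCs and 0.499, 0.214 and 0.768 in AFSCs (5.95 ± 0.37). Every ASC sample lay far above every AFSC sample in both. Feedback inhibitors were higher too, Smad6 by 3.40, Smad7 by 1.81 and Bambi by 1.21. Smad9 had 1 count over the AFSC samples and 79 over the ASC samples, a ratio of 72.5 (12.6 to 2900). The ligand Bmp4 itself was higher, at 64.5, 49 and 53.3 in ASCs and 14.5, 9.89 and 14.4 in AFSCs (2.07 ± 0.22). The 2 lower members were the receptor gene Bmpr1b (-1.70, samples overlapping) and Tbx20 (-1.20), both at low levels.

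The genes of the Wnt list moved in both directions. Of 30 tested, 8 were higher and 8 lower, and the median log2 fold change was 0.02. Axin2 and Sp5, often used as readouts of this pathway, were not called. Axin2, which encodes a scaffold of the beta-catenin destruction complex, had levels of 110, 102 and 112 in ASCs and 49.2, 56.8 and 82.6 in AFSCs, a log2 fold change of 0.75 ± 0.17 that did not reach the fold threshold although the samples did not overlap. Sp5 had 74.5, 115 and 121 in ASCs and 68.6, 84.3 and 114 in AFSCs, with overlapping samples (0.18 ± 0.19, adjusted p = 0.409). The caudal homeobox genes, by contrast, appeared. Cdx1 had levels of 245, 460 and 404 in ASCs and 0 in each of the AFSC samples and was at least 548-fold higher, and Cdx2 had 41, 55.1 and 57.2 in ASCs and 1.79, 2.05 and 2.75 in AFSCs (4.46 ± 0.39). Notum, a secreted Wnt inhibitor, had 168, 133 and 132 in ASCs and 8.95, 5.29 and 8.6 in AFSCs (4.22 ± 0.21), and the receptor Fzd5 had 131, 105 and 112 in ASCs and 22.2, 17.9 and 24 in AFSCs (2.41 ± 0.14). Apcdd1, Bcl9l, Dkk1 and Nkd2 were the other 4 higher members, and Nkd2 was not called without the samples numbered 1.

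The lower members of the Wnt list were led by ligands. Wnt8a had levels of 16.7, 16.1 and 17 in ASCs and 747, 658 and 1287 in AFSCs (-5.78 ± 0.27, adjusted p = 1.82e-12), Wnt3 had 10.9, 13.8 and 11.1 in ASCs and 125, 97.8 and 186 in AFSCs (-3.54 ± 0.24) and Wnt11 fell by 1.66 on the log2 scale. The mesoderm factor T (brachyury), which Wnt activates, had 27, 25.6 and 27.9 in ASCs and 62.8, 64 and 130 in AFSCs (-1.71 ± 0.22). AFSC replicate 3 was the highest sample in each of these 4 genes. Sp8, Ccnd2, Fzd7 and Tcf7l2 were also lower, but Fzd7 and Tcf7l2 lay at the fold threshold and were not called by DESeq2.

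Of the LIF-STAT3 list 15 of 22 tested genes were higher and 4 lower, with a median of 2.07. The receptor subunits came first in this chain. Lifr had levels of 43.2, 24.5 and 26.2 in ASCs and 1.3, 2.24 and 1.91 in AFSCs (4.06 ± 0.26) and Il6st, which encodes gp130, had 101, 58.1 and 61.7 in ASCs and 17.5, 9.91 and 20.9 in AFSCs (2.16 ± 0.23). Stat3, the transcription factor they act on, had 73, 79.3 and 89 in ASCs and 12.9, 18.2 and 15.6 in AFSCs (2.34 ± 0.20). No ASC sample overlapped with an AFSC sample in any of the 3. Its feedback inhibitor Socs3 had 192, 272 and 273 in ASCs and 38.7, 29.6 and 30.5 in AFSCs (2.88 ± 0.16, adjusted p = 1.49e-11), and Bcl3, a nuclear IkB protein, had 122, 214 and 211 in ASCs and 1.63, 0 and 0.419 in AFSCs (8.05 ± 0.40). The kinases Pim1 and Pim3 were higher by 1.97 and 1.32, whereas the related Pim2, an X-linked gene, was lower at 93.4, 117 and 130 in ASCs and 1349, 2813 and 2339 in AFSCs (-4.28 ± 0.23). The other lower members were Socs2, Junb and Lif, which had 15.4, 12.4 and 14.4 in ASCs and 34, 30.6 and 35.5 in AFSCs (-1.27 ± 0.22). Without the samples numbered 1, Socs2 and Junb were not called.

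Promoter sequences are shown for 2 called members with high log2 fold changes in each of these 3 lists. They are not always the 2 highest, since some members have no entry in the RefSeq promoter table or were left out by chromosome. Each sequence is the stretch from 250 bases before to 50 bases after the start of the gene on GRCm38.p6. Of the called members that have an entry, 12 were in the BMP list, 10 in the Wnt list and 17 in the LIF-STAT3 list. The motifs searched stand for the 3 signals and were read on both strands. They are GGCGCC, a palindrome bound by SMAD1 and SMAD5, ATCAAAG with its reverse complement CTTTGAT, the core bound by TCF and LEF factors, and TTCNNNGAA, the STAT site. Capitals mark these motifs. For BMP these are Gata2 (chr6:88193641-88193940, plus strand) and Msx2 (chr13:53472731-53473030, minus strand), for Wnt Cdx2 (chr5:147307200-147307499, minus) and Fzd5 (chr1:64737701-64738000, minus), and for LIF Bcl3 (chr7:19822706-19823005, minus) and Tfcp2l1 (chr1:118627695-118627994, plus). Sequences are written 5′ to 3′ on the gene's strand.
Gata2: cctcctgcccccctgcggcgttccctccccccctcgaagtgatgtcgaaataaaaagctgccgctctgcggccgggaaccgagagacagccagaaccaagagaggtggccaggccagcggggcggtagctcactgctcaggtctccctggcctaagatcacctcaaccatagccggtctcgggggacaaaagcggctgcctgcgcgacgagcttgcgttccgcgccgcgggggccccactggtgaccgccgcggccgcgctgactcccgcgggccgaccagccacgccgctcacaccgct
Msx2: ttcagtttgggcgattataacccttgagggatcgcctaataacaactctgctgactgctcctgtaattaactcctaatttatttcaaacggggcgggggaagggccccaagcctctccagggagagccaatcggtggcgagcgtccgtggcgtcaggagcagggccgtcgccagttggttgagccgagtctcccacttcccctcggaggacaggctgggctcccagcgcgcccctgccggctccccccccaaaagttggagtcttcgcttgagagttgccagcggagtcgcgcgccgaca
Cdx2: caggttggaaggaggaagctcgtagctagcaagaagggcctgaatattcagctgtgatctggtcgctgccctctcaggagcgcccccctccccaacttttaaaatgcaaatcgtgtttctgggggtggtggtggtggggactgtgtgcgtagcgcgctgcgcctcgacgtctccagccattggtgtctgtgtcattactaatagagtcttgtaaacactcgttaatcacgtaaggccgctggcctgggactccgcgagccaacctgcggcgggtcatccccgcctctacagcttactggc
Fzd5: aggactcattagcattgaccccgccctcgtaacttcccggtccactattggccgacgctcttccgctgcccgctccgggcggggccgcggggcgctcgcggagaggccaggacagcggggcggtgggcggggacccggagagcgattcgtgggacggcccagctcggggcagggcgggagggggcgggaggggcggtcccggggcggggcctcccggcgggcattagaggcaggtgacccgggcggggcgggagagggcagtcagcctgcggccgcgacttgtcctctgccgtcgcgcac
Bcl3: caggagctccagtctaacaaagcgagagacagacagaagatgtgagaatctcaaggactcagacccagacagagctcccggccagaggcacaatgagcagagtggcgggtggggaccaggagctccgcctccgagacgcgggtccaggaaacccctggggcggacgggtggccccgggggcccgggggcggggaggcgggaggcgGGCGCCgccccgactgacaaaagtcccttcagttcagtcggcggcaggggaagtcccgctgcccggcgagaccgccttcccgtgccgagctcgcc
Tfcp2l1: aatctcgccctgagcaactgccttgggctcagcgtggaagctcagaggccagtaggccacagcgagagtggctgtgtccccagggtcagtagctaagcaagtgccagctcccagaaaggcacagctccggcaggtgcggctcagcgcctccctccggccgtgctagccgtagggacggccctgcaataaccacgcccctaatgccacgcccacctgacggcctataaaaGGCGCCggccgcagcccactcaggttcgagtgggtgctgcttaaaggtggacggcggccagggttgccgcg

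Of these 6 windows, 2 held a motif, GGCGCC 45 bases before the start of Bcl3 and 21 bases before that of Tfcp2l1. The next 3 windows are shown because they hold a motif that matches their own list, a choice made after the search. They belong to Smad9 (chr3:54755332-54755631, plus), with GGCGCC at position -51, Socs3 (chr11:117969317-117969616, minus), with TTCNNNGAA at -154 and GGCGCC at -61, and Icam1 (chr9:21015690-21015989, plus), with TTCNNNGAA at -42, counted from the start of the gene.
Smad9: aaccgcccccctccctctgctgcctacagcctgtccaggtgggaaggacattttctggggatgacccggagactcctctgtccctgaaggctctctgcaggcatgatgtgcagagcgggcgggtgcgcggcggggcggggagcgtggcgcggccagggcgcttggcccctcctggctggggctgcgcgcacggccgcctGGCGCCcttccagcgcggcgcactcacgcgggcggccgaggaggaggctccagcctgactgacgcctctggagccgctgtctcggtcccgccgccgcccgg
Socs3: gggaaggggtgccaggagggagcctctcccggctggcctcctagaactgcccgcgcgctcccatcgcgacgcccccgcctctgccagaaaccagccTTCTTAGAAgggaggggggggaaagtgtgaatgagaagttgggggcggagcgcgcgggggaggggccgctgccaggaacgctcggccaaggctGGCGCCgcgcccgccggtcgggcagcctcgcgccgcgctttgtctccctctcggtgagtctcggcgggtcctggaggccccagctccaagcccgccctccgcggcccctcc
Icam1: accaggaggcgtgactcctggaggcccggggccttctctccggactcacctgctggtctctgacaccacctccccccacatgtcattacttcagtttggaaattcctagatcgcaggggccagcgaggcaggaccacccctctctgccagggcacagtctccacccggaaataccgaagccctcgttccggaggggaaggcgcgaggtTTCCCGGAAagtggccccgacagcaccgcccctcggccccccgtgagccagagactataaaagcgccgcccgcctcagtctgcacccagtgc

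Over all 27025 promoters of the table, GGCGCC stood in 3233 (12%), the TCF and LEF core in 1006 (3.72%) and the STAT site in 2288 (8.47%). Each list was searched for its own motif, which stood in 5 of the 12 BMP, 1 of the 10 Wnt (Wnt11) and 2 of the 17 LIF-STAT3 members. A match describes the letters in this window only.

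Removal of bFGF was accompanied by lower levels of some genes downstream of FGF and ERK, although 18 of the 31 tested were not called. In all, 9 were lower and 4 higher, with a median of -0.55. Dusp6, the phosphatase that ERK signalling induces, had levels of 88, 106 and 113 in ASCs and 447, 410 and 379 in AFSCs (-2.03 ± 0.14, adjusted p = 2.77e-10), and Spred3, Etv1, Phlda1 and the immediate early genes Fos, Fosb, Fosl1, Junb and Myc were lower as well. Myc had 37.8, 58.5 and 65.4 in ASCs and 218, 262 and 202 in AFSCs (-2.10 ± 0.20). Other feedback genes did not follow Dusp6. Spry2 had 401, 453 and 446 in ASCs and 424, 472 and 460 in AFSCs and Egr1 had 556, 550 and 620 in ASCs and 730, 681 and 642 in AFSCs, and neither was called. Spry4, an inhibitor of the same pathway, was higher at 129, 126 and 139 in ASCs and 34.9, 39.1 and 44.7 in AFSCs (1.70 ± 0.18), as were Etv5 (1.02), Dusp1 (1.42) and Ier3 (1.04), although Etv5 was not called without the samples numbered 1.

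Among 19 tested FGF ligands, receptors and binding proteins 7 were higher and 7 lower. Fgf4, the FGF of the inner cell mass, rose from 78, 71 and 76.5 in AFSCs to 539, 469 and 439 in ASCs (2.66 ± 0.13), while Fgf5, Fgf8, Fgf15, Fgf17 and Fgf18 fell. Fgf3 was higher by 4.42, and Fgf10, at 0 counts in AFSCs, was at least 32.6-fold higher. The binding protein gene Fgfbp1 had 68.7, 43.6 and 49 in ASCs and 472, 422 and 460 in AFSCs (-3.10 ± 0.21). The receptors Fgfr3 and Fgfr4 and the decoy Fgfrl1 were higher, whereas the main receptors Fgfr1 (-0.63) and Fgfr2 (0.05) were not called.

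Activin A was in both media, and the Nodal and activin list split, with 8 of 27 tested genes higher and 9 lower (median -0.05). The neighbouring antagonist genes Lefty1 and Lefty2 on chromosome 1 moved in opposite directions. Lefty1 had levels of 272, 218 and 222 in ASCs and 3931, 3333 and 4730 in AFSCs (-4.10 ± 0.19, adjusted p = 1.94e-12) and Lefty2 had 1091, 763 and 673 in ASCs and 54.1, 40.3 and 73 in AFSCs (3.88 ± 0.22, adjusted p = 3.45e-11). The ligand Nodal was lower at 338, 249 and 228 in ASCs and 578, 512 and 868 in AFSCs (-1.29 ± 0.20), and the coreceptor Tdgf1 was higher at 2745, 2087 and 1879 in ASCs and 637, 675 and 996 in AFSCs (1.51 ± 0.17). The receptors Acvr1b and Acvr2b (1.61 and 1.72), the ligand Gdf3 (1.74), Inhbb and the processing protease Pcsk6 (5.26) were also higher. The target Eomes (-2.91), the antagonists Fst (-3.28) and Cer1 and the partner Foxh1 (-1.58) were lower. The signal transducers Smad2, Smad3 and Smad4 were not called, at 0.33, 0.21 and -0.05.

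The naive pluripotency network was higher with a single exception. Of its 21 tested genes 20 were higher and 1, the X-linked Ras gene Eras, was lower (-1.21, not called without ASC replicate 1), with a median of 6.43. Klf4 had levels of 902, 1017 and 1041 in ASCs and 11.5, 13.3 and 14.6 in AFSCs (6.19 ± 0.17, adjusted p = 2.14e-15). Esrrb, an orphan nuclear receptor, had 631, 747 and 813 in ASCs and 0.668, 2.68 and 2.74 in AFSCs (8.40 ± 0.31), and Tfcp2l1, a CP2 family factor, had 521, 375 and 453 in ASCs and 3.57, 5.15 and 6.48 in AFSCs (6.43 ± 0.27). The lowest ASC sample was far above the highest AFSC sample for each of these 3 factors. Several genes were almost silent in AFSCs. Zfp42 (Rex1) had 3 counts over the AFSC samples, a ratio of 2461 (842 to 11935), Tbx3 and Dppa3 (Stella) had 2, with ratios of 3278 (907 to 27074) and 289 (79.7 to 2393), and Nr0b1 had 1, a ratio of 2428 (435 to 95939). Prdm14, which represses FGF signalling and de novo methylation, had 114, 126 and 142 in ASCs and 0 in each of the AFSC samples and was at least 277-fold higher, and Tcl1 was at least 636-fold higher. The smallest gains in the list were 1.83 for Gbx2, 1.42 for Trim8 and 2.66 for Fgf4.

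The core factors differed from this pattern. Pou5f1 (Oct4) had levels of 3495, 6867 and 6270 in ASCs and 7109, 8338 and 6787 in AFSCs, with overlapping samples and a log2 fold change of -0.45 ± 0.19 (adjusted p = 0.0513). A reporter of this gene served to pick colonies in the protocol for GOF-GFP cells. Sox2 had 1405, 1933 and 1980 in ASCs and 709, 555 and 429 in AFSCs (1.63 ± 0.18) and Nanog 2222, 2853 and 2913 in ASCs and 807, 669 and 738 in AFSCs (1.82 ± 0.16), and both groups were separate in these 2 genes. Of the 15 tested core genes 6 were higher and 2 lower. Dppa2 and Dppa4, paired chromatin factors active before implantation, rose by 6.66 and 6.67, while Lin28a, which blocks let-7 maturation, had 311, 332 and 399 in ASCs and 624, 841 and 808 in AFSCs (-1.15 ± 0.16) and Utf1 fell by 1.06, a call lost without the samples numbered 1.

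**Figure D2:**
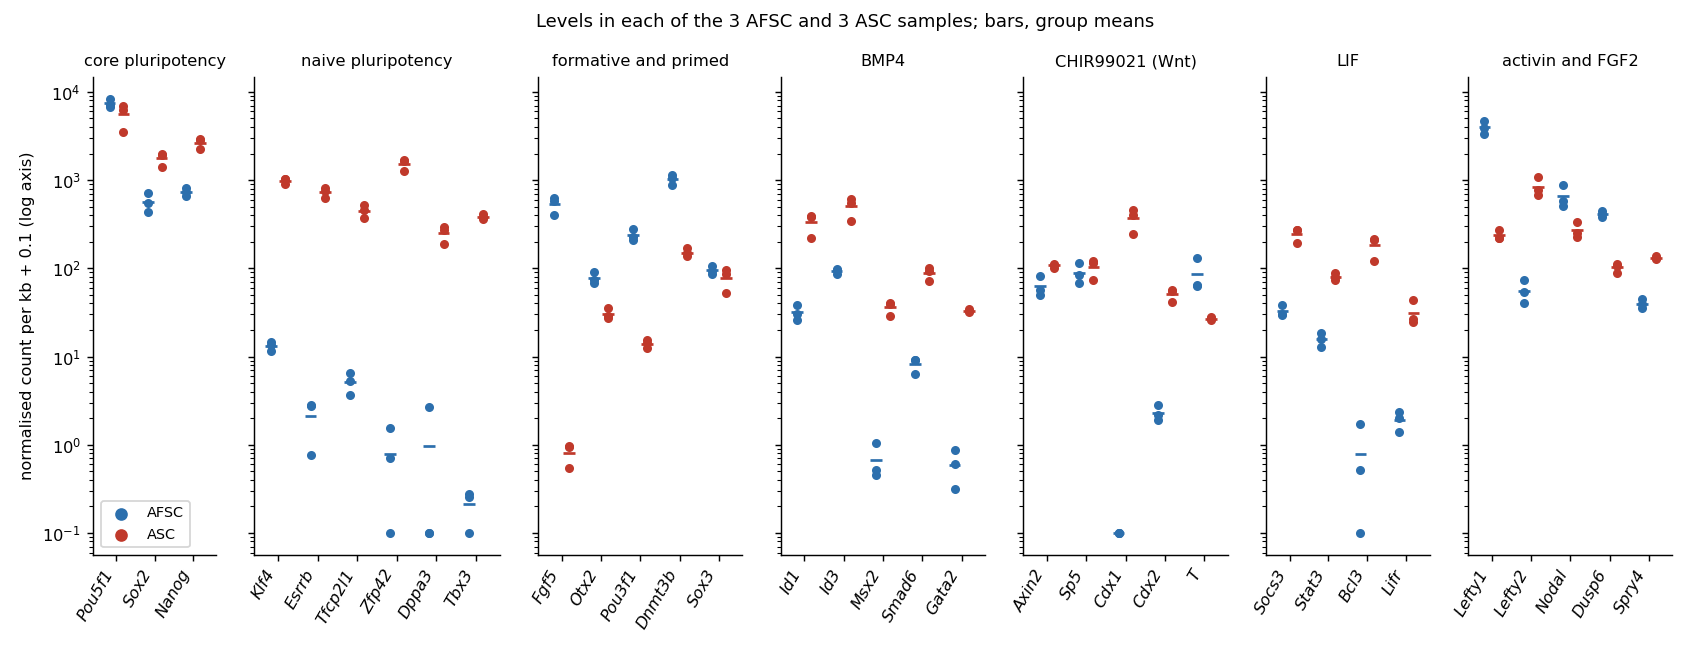
Points give the level of each gene in each of the 3 AFSC (blue) and 3 ASC (red) samples, as normalised counts per kb with 0.1 added on a log axis, and short bars give group means. Naive genes and the BMP and LIF genes shown separate the groups, Pou5f1, Sp5 and Sox3 overlap, and Lefty1 and Lefty2 change places.

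The formative and primed list moved the other way. Of 20 tested genes 15 were lower and 0 higher by edgeR's test (0 by DESeq2, and 2 higher at an unadjusted p under 0.05), with a median of -1.38. Beside Fgf5 and Wnt8a, the POU factor Pou3f1 (Oct6) had levels of 12.3, 14 and 15.4 in ASCs and 212, 282 and 225 in AFSCs (-4.13 ± 0.20), and Otx2, which directs enhancers of the formative state, had 28.9, 35.1 and 27.1 in ASCs and 74.5, 91 and 68.3 in AFSCs (-1.38 ± 0.14). Otx2 therefore stayed detectable in every ASC sample. The log2 fold change was -1.40 for Zic2 and -1.37 for Zic5, zinc finger genes, -2.74 for Sall2, -2.32 for the tight junction gene Cldn6, -1.45 for Sox4 and -1.29 for Sox11. Sox11 was not called without AFSC replicate 1. The 5 that were not called were Dnmt3a (0.33), Sox3 (-0.31), Lef1 (0.01), Grhl2 (0.76) and Cdh2 (-0.98).

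Lineage genes did not move as a block. In the primitive streak and mesoderm list 8 of 22 tested genes were higher and 6 lower, and without the samples numbered 1 it was 5 and 6. Those lower were the streak genes T, Eomes, Mixl1, Fgf8, Wnt3 and Lhx1. Eomes, a T-box factor of the streak, had 17.1, 23.5 and 24 in ASCs and 124, 161 and 191 in AFSCs (-2.91 ± 0.17), and Lhx1 was at least 22.9-fold lower. Those higher were the posterior and BMP-related genes Cdx1, Cdx2, Evx1, Hand1 and Mesp2, and Wnt5a, Pdgfra and Kdr at low levels, and without the samples numbered 1 Pdgfra and Kdr lost their calls and Hand1 did not pass the filter on counts. Hand1, a factor of extraembryonic mesoderm and trophoblast, had 33.5, 35.4 and 47.8 in ASCs and 1.35, 2.32 and 1.04 in AFSCs (4.56 ± 0.49), and Evx1 had 12, 13 and 17.9 in ASCs and 2.34, 4.83 and 3.6 in AFSCs (1.94 ± 0.36).

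Of 17 tested endoderm genes 7 were higher and 3 lower. Foxa2, a definitive endoderm and anterior streak factor, had levels of 0.455, 1.31 and 0.463 in ASCs and 99.4, 82.5 and 89.6 in AFSCs (-6.84 ± 0.30), and Cer1 and Dab2 were the other 2 lower genes. Gata4, Gata6, Hnf4a, Amn, Trf and Prdm1 were higher but stayed low, with Gata4 at 7.46, 8.24 and 8.71 in ASCs and 0.69, 0 and 0.531 in AFSCs. The Gata6 samples overlapped, and its call was lost without ASC replicate 2 or AFSC replicate 3. The X-linked homeobox gene Rhox5 made up most of this list's summed level in ASCs, which was 2296 to 2966 against 180.3 to 214.9 in AFSCs. Without Rhox5, the sum was lower in each ASC sample than in any AFSC sample. Trophoblast genes were 12 higher and 4 lower among 19, although their summed level was lower in ASCs, at 1266 to 1526 against 2326 to 3096 in AFSCs. Tead4, Tfap2c, Esx1, Plet1, Ets2 and Ascl2 were higher, with Tead4 at 67.2, 74.5 and 81.4 in ASCs and 5.24, 5.79 and 5.76 in AFSCs (3.69 ± 0.23), and the 4 lower were the keratins Krt7, Krt8, Krt18 and Krt19 (Krt19 not without the samples numbered 1). The defining trophoblast gene Elf5 had 2 counts over the ASC and 1 over the AFSC samples. Among 13 neural and ectoderm genes, Tfap2a, Hesx1 and Lhx2 were among those higher, at low levels, and Nes, the intermediate filament nestin, fell from 212, 270 and 294 to 48.6, 39.3 and 37.4 (-2.66 ± 0.19).

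Genes of germ cell specification were 10 higher and 0 lower among 16 tested, by edgeR's test (median 3.08). DESeq2 also called 0 lower, and 0 were lower at an unadjusted p under 0.05. Tfap2c had levels of 170, 192 and 209 in ASCs and 16.5, 15.4 and 15.8 in AFSCs (3.56 ± 0.13), Prdm1 (Blimp1) had 14.7, 11.3 and 14.6 in ASCs and 1.47, 1.9 and 3.02 in AFSCs (2.60 ± 0.27) and the receptor gene Kit had 226, 120 and 131 in ASCs and 8.46, 5.2 and 13 in AFSCs (4.12 ± 0.30). The list shares Prdm14, Tcl1, Zfp42 and Dppa3 with the naive list, and naive cells are known to express these. Ifitm1 and Ifitm3, surface markers of nascent germ cells, were not called (0.64 and 0.22).

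Meiotic and later germline genes were higher nearly throughout. Of 36 tested, 33 were higher and 1, the recombinase gene Spo11, was lower, with a median of 6.77, or 5.30 with the 11 members at 0 counts in AFSCs set to their bound. Dazl, an RNA-binding protein of germ cells, had levels of 275, 230 and 245 in ASCs and 0 in each of the AFSC samples and was at least 624-fold higher. Sohlh2 was at least 523-fold and the synapsis gene Hormad1 at least 208-fold higher. Stra8, the retinoic acid target at meiotic entry, had 68.8, 94.5 and 96.1 in ASCs and 0.747, 0.642 and 0 in AFSCs, a ratio of 201 (55.2 to 1661) with 2 counts in AFSCs. The cohesin subunit Stag3 had 169, 128 and 130 in ASCs and 1.41, 1.01 and 1.45 in AFSCs (6.74 ± 0.22), and Tex19.1 and Tdrd12 rose by 5.44 and 5.68. The piRNA pathway genes Mael (at least 75-fold), Asz1 (at least 35-fold) and Piwil2 (5.66 ± 0.39) were higher too, and Ddx4 (Vasa) had 204 counts in ASCs and 1 in AFSCs, a ratio of 187 (33.2 to 7432). Without AFSC replicate 1, Spo11 did not pass the filter on counts.

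Genes active in the two-cell embryo were higher in 30 of 30 tested, with a median of 9.31, or 6.30 with the 18 members at 0 in AFSCs at their bound. The tested list was filtered on counts in any 3 samples, and most of its members passed through the ASC samples, in which they are high, so this count carries no support by itself. Zscan4f had levels of 1193, 905 and 897 in ASCs and 1.38, 0 and 0 in AFSCs, a ratio of 2513 (695 to 20756), and Zscan4d was at least 412-fold higher. The 8 tested genes of the Zscan4 cluster on chromosome 7, which acts in telomere maintenance, are near-identical and share reads. Tmem92, Tcstv1, Zfp352 and Duxf3, the factor that opens the two-cell programme, were at least 91.5, 66.1, 29 and 17-fold higher, with Duxf3 at only 7.6, 5 and 9.76. Without the samples numbered 1, 23 of the 30 were higher. The filter of 10 counts in 3 samples was applied again there, and genes expressed only in ASCs could not pass it. That count therefore does not show that genes stopped being higher. Two-cell genes are known to be expressed by a small share of cells at a time, which bulk values do not resolve.

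Several gene families had many members higher among those tested. As for the two-cell genes, many of their members passed the filter on counts through samples in which they are high, and 16 further Rhox, 21 Hox and 5 PRAME genes did not pass it. All 18 tested Rhox genes, X-linked homeobox genes of reproductive tissue, were higher (median 8.56, or 6.22 with 11 at their bound). Rhox5 had levels of 2178, 2797 and 2262 in ASCs and 7.14, 3.07 and 4.12 in AFSCs (8.95 ± 0.38), and Rhox2a, which shares reads with its copies, was at least 128-fold higher. Of 8 tested PRAME genes 7 were higher, with Pramel7 at 38.9, 50.6 and 39.6 in ASCs and 0 in each of the AFSC samples, at least 77.8-fold, and all 5 tested Fthl17 genes, ferritin-like and X-linked, were higher. Hox genes were 17 of 18 higher (median 6.19, or 4.29 with 9 at their bound), all at low level, such as Hoxa10 at 14.8, 21.9 and 14.1 in ASCs and 0 in each of the AFSC samples and Hoxb9 at 18.4, 11.3 and 17.5 in ASCs and 0 in each of the AFSC samples, at least 47 and 34.3-fold higher. Kruppel-like factors were 11 of 15 higher.

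Among 18 tested genes of the DNA methylation machinery 5 were higher and 1 lower, where 22.7% and 16.7% of all genes were. Dnmt3b, the de novo methyltransferase of the epiblast, had levels of 136, 147 and 168 in ASCs and 876, 1133 and 1059 in AFSCs (-2.79 ± 0.15, adjusted p = 1.43e-11), and its catalytically inactive partner Dnmt3l had 603, 963 and 901 in ASCs and 2.7, 2.32 and 2.43 in AFSCs (8.33 ± 0.30, adjusted p = 4.87e-14). Dnmt3a and the maintenance enzyme Dnmt1 were not called (0.33 and 0.86). The dioxygenases Tet1 and Tet2, which oxidise 5-methylcytosine, had 312, 151 and 145 in ASCs and 38.9, 23.4 and 35.4 in AFSCs (2.61 ± 0.24) and 104, 59.1 and 69.9 in ASCs and 4.31, 2.2 and 3.93 in AFSCs (4.46 ± 0.24), while Tet3 was not called. Uhrf1 and Zfp57, which protects imprints, were higher by 1.19 and 1.83.

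Imprinted genes were 14 higher and 12 lower among 40 tested. In the Igf2 and H19 domain both the paternally expressed growth factor Igf2, at 551, 498 and 617 in ASCs and 35.1, 12.7 and 20.3 in AFSCs (4.60 ± 0.29), and the maternally expressed RNA H19, at 30, 53.4 and 49.5 in ASCs and 4.54, 0 and 0 in AFSCs (4.98 ± 0.72), were higher. H19 had no count in 2 of the 3 AFSC samples. In the domain of Dlk1 and Meg3 on chromosome 12 all 5 called genes were lower, namely Meg3 (-2.40 ± 0.30), Rian (-2.31 ± 0.26), Mirg (-2.13), Dlk1 (-2.07) and Rtl1 (-1.76, not called without the samples numbered 1). Plagl1, a zinc finger gene, had 127, 88.8 and 103 in ASCs and 0.172, 0.148 and 0.398 in AFSCs (8.63 ± 0.26), Cdkn1c, a cell cycle inhibitor, had 54.5, 112 and 79.6 in ASCs and 5.94, 3.97 and 3.56 in AFSCs (4.18 ± 0.31), and Igf2r rose by 2.12. Snrpn, Magel2, Peg3 and Gnas were lower, with -1.95, -3.32, -1.39 and -2.63.

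Genes of glucose uptake and breakdown were higher. Of 27 tested glycolysis and pyruvate genes 20 were higher and 1, the muscle enolase Eno3, was lower (-2.36), with a median of 1.28. The glucose transporter Slc2a3 (Glut3) had levels of 5894, 3432 and 3071 in ASCs and 402, 358 and 575 in AFSCs (3.19 ± 0.26) and Slc2a1 (Glut1) 2904, 2363 and 2118 in ASCs and 612, 374 and 592 in AFSCs (2.20 ± 0.19). The phosphofructokinase Pfkp had 726, 700 and 692 in ASCs and 55.2, 37 and 35.2 in AFSCs (4.03 ± 0.17, adjusted p = 3.27e-13), and Pdk1, which holds pyruvate back from the mitochondrion, had 161, 186 and 181 in ASCs and 22.5, 29.3 and 27.4 in AFSCs (2.71 ± 0.15). The lactate exporter Slc16a3 (Mct4) rose by 4.63, Pgk1, an X-linked gene, by 2.50, and Hk1, Aldoa and Ldha by 2.17, 1.48 and 1.47. Gapdh was not called (-0.31 ± 0.23). Beside glycolysis, threonine dehydrogenase (Tdh), on which mouse embryonic stem cells depend, had 1155, 1448 and 1480 in ASCs and 10.8, 7.97 and 10.7 in AFSCs (7.08 ± 0.21), and Gldc rose by 1.82, with 2 of 20 genes of that list higher and 1 lower. Among 23 sterol synthesis genes 1 was higher (Insig1) and 3 were lower, with Hmgcs1 at 375, 325 and 358 in ASCs and 1554, 1256 and 1056 in AFSCs.

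Measured as reads, glycolysis genes were also among the largest gains. Of the 10 genes that gained most in mean CPM (counts of a library scaled to a common total), Slc2a3, Pgk1, Eno1, Ldha, Aldoa and Slc2a1 belong to this list. Eno1 was not called without ASC replicate 2, ASC replicate 3 or AFSC replicate 1. Slc2a3 went to 3358 ± 1262 against 368 ± 94.5 (mean ± SD, ASCs against AFSCs), Pgk1 to 2815 ± 554 against 496 ± 226 and Eno1 to 3463 ± 937 against 1659 ± 393 CPM. The other 4 were Pabpc1 (2535 ± 21.1 against 818 ± 255), the naive gene Dppa5a (1703 ± 295 against 1.75 ± 0.937), fibronectin, Fn1 (1391 ± 462 against 89.3 ± 33.6), and Tmem72 (1327 ± 618 against 36 ± 10.8). The 10 largest losses were Ppia (1512 ± 361 against 3508 ± 744), Tpt1, Rpl19, Gnas, Gm20721, Rpl23, the actin-binding Pfn1, Rps27a, Rpl27 and the imprinted RNA Rian. Without the samples numbered 1, Ppia, Tpt1, Rpl19, Rpl23, Rps27a and Rpl27 were not called. Gm20721 and Gnas overlap and share reads. Of these 10, 6 are on chromosome 11. Of 81 tested ribosomal protein genes 7 were lower and 4 higher, and 1 was lower without the samples numbered 1.

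**Figure D3:**
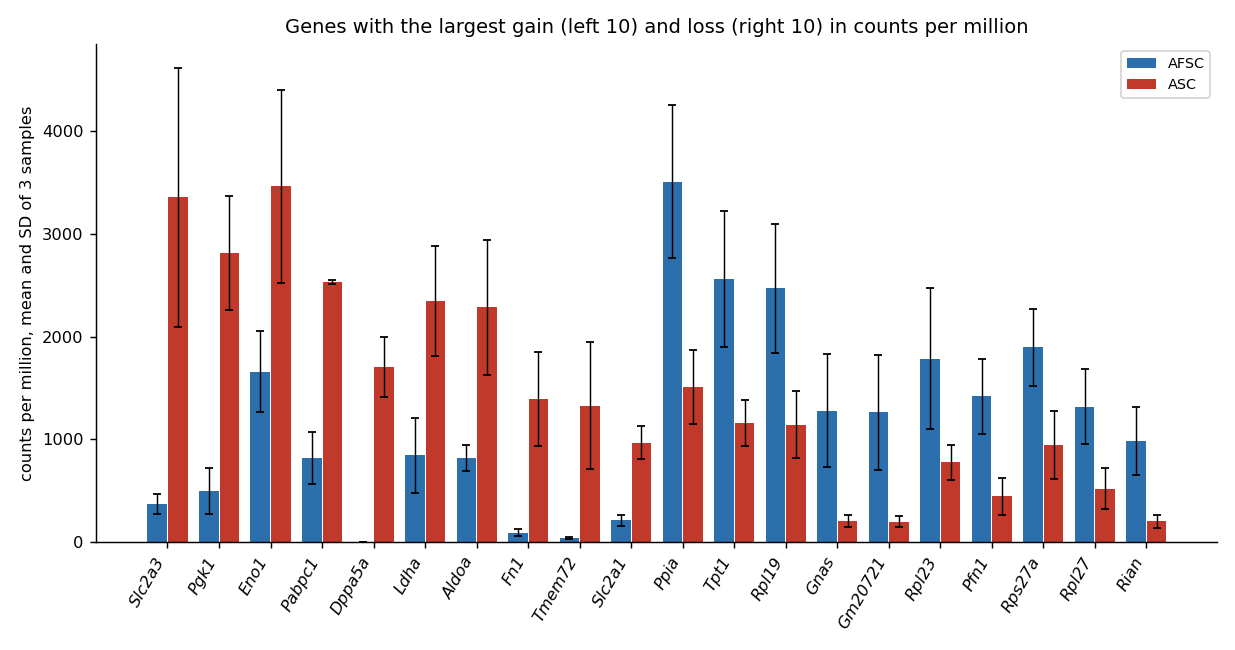
Bars give the mean and error bars the SD of 3 samples, in CPM, for the 10 genes with the largest gain (left) and the 10 with the largest loss (right) in AFSCs (blue) and ASCs (red). Slc2a3 gains most, from 367.9 to 3358, and Ppia loses most, from 3508 to 1512.

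Mitochondrially encoded genes followed 1 library. With all samples 14 of 37 were lower and 0 higher in ASCs by edgeR's test (median -1.52), with 0 higher also by DESeq2 and at an unadjusted p under 0.05. Without AFSC replicate 1, the library with 14.4% mitochondrial counts, 0 were lower and 4 higher (median 0.41), and without both samples numbered 1 the counts were 0 and 1 (median -0.06).

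Antigen presentation genes were largely lower. Of 20 tested MHC class I genes 11 were lower and 2 higher, with a median of -1.49. The immunoproteasome subunit Psmb8 had levels of 3.15, 4.17 and 3.21 in ASCs and 103, 109 and 84.1 in AFSCs (-4.82 ± 0.26, adjusted p = 1.27e-11), Psmb10 had 27.8, 49.9 and 41.8 in ASCs and 449, 420 and 336 in AFSCs (-3.35 ± 0.19) and the peptide transporter Tap2 had 14.3, 10.7 and 4.93 in ASCs and 78, 45.3 and 68.5 in AFSCs (-2.70 ± 0.30). The light chain B2m fell by 1.70. The 2 higher members were the heavy chains H2-K1, at 431, 330 and 296 in ASCs and 135, 97.7 and 166 in AFSCs (1.38 ± 0.17), and H2-Q7 (2.82 ± 0.41). H2-Q7 has near-identical relatives, so its reads may be shared.

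Cell adhesion and cytoskeleton genes changed without loss of the main cadherin. Cdh1 (E-cadherin) was not called (-0.05 ± 0.23), but 11 of 25 tested epithelial genes were lower and 2 were higher (median -0.64). Krt8 and Krt18, the keratins of simple epithelia, had levels of 292, 304 and 318 in ASCs and 1426, 1279 and 1169 in AFSCs (-2.11 ± 0.14) and 215, 266 and 295 in ASCs and 1119, 924 and 763 in AFSCs (-1.88 ± 0.16), and the splicing regulator Esrp1, Rab25, Cldn6, Cldn7, Marveld2, Marveld3, Crb3, Ap1m2 and Epcam (-1.20) were also lower. Of 22 mesenchymal genes 7 were lower and 4 higher. The intermediate filament gene Vim had 188, 272 and 289 in ASCs and 1688, 1180 and 1148 in AFSCs (-2.45 ± 0.17), whereas fibronectin, Fn1, had 1463, 854 and 868 in ASCs and 87.7, 38.7 and 74.6 in AFSCs (3.96 ± 0.29). The laminin chain Lama1, part of the basement membrane, had 152, 90.8 and 82.9 in ASCs and 0.849, 0.608 and 0.871 in AFSCs (7.08 ± 0.35), and 5 of 9 laminins were higher. Collagens were divided, with 11 of 32 higher and 10 lower. Protocadherins were lower in 24 of 46 tested and higher in 1, but genes of the clusters overlap on shared exons and share counts.

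Markers of cells other than pluripotent cells were checked as well. Of the 11 tested fibroblast markers 7 were lower and 3 higher, and their summed level was 215.9 to 240.7 in ASCs and 1129 to 1774 in AFSCs. Most of the AFSC level was Tagln (transgelin), at 72.8, 73.3 and 98.9 in ASCs and 949, 1650 and 1564 in AFSCs (-4.11 ± 0.23). The defining fibroblast genes Prrx1, Fap, Postn and Lum did not pass the filter on counts. The 7 blood and endothelial markers summed to 27.98 to 41.05 and 7.293 to 36.86, and Ptprc and Cdh5 did not pass the filter.

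Other lists had called shares that can be read against the 22.7% higher and 16.7% lower of all genes. Of 31 tested MYC family and cell cycle genes 4 were higher and 5 lower, or 7 and 4 without the samples numbered 1. The retinoblastoma gene Rb1 was lower (-1.49, not called without AFSC replicate 1). Of 21 apoptosis genes 4 were higher and 5 lower. Pmaip1 (Noxa), a BH3-only protein, had levels of 85.2, 90.7 and 97 in ASCs and 1.02, 0.875 and 1.18 in AFSCs (6.38 ± 0.23), while Bcl2 (-3.88) and Casp8 (-3.06) were lower. In the retinoic acid list 7 of 17 were lower and 4 higher. Dhrs3, which returns retinal to retinol, fell by 4.44 and Rxrg by 5.08, while Aldh1a2, the enzyme that makes retinoic acid, was higher at 15.7, 18.8 and 16.5 in ASCs and 4.16, 2.04 and 0.915 in AFSCs (2.86 ± 0.37).

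X-linked genes were higher more often than autosomal genes. Of 641 tested, 297 (46.3%) were higher and 67 lower, against 21.8% of autosomal genes higher, and the median log2 fold change was 0.85 on the X and 0.0009 on autosomes. The median X-linked minus the median autosomal log2 level was 0.57, 0.49 and 0.49 in the ASC samples and -0.69, -0.85 and -0.79 in the AFSC samples, so the groups did not overlap. The means were 0.52 ± 0.05 and -0.78 ± 0.08 (SD, n = 3), a difference of 1.29 (p = 0.1 in a two-sided exact permutation test, which cannot go lower with 3 against 3 samples). With genes of at least 10 counts in each of the 6 samples, 420 of them X-linked, the difference was 0.78. Xist, the RNA that coats the inactive X, had levels of 33.8, 16 and 17.6 in ASCs and 271, 142 and 291 in AFSCs (-3.41 ± 0.33, adjusted p = 7.16e-08), and its activator Jpx fell by 3.46. The 6 Y-linked genes that passed the filter on counts had a summed level of at most 0.205 normalised counts per kb in any of the 6 samples, so no difference could be detected for them. The Rhox and Fthl17 genes, which were at or near 0 in AFSCs, are part of the X-linked count. The difference of 0.78 over genes with counts in every sample shows that the X shift was not confined to genes silent in AFSCs. Whether it covers the whole chromosome was not tested.

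Chromosome 11 stood out in the opposite direction, a pattern seen after the values were known and not tested. Over genes with at least 30 counts in all samples (8907 on all chromosomes), the median log2 level relative to the mean of 18 samples was 0.25, 0.33 and 0.31 on chromosome 11 in the 3 AFSC samples. It was -0.06, -0.02 and -0.01 in the ASC samples and between -0.09 and -0.01 in the 15 samples that are not AFSC. The shift from AFSCs to ASCs was -0.33 on chromosome 11, -0.14 on chromosome 10, 0.76 on the X and between -0.09 and 0.19 on the other autosomes. Of 1377 tested genes on chromosome 11, 238 (17.3%) were higher and 312 (22.7%) lower. Of the 7 lower ribosomal protein genes 5 are on it, with a median of -1.11 over the 7 tested there and -0.32 over the others. Karyotypes were not analysed here, and the part of chromosome 11 in the losses named above, such as Ppia, Wnt3 and Alox15, was not tested.

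**Figure D4:**
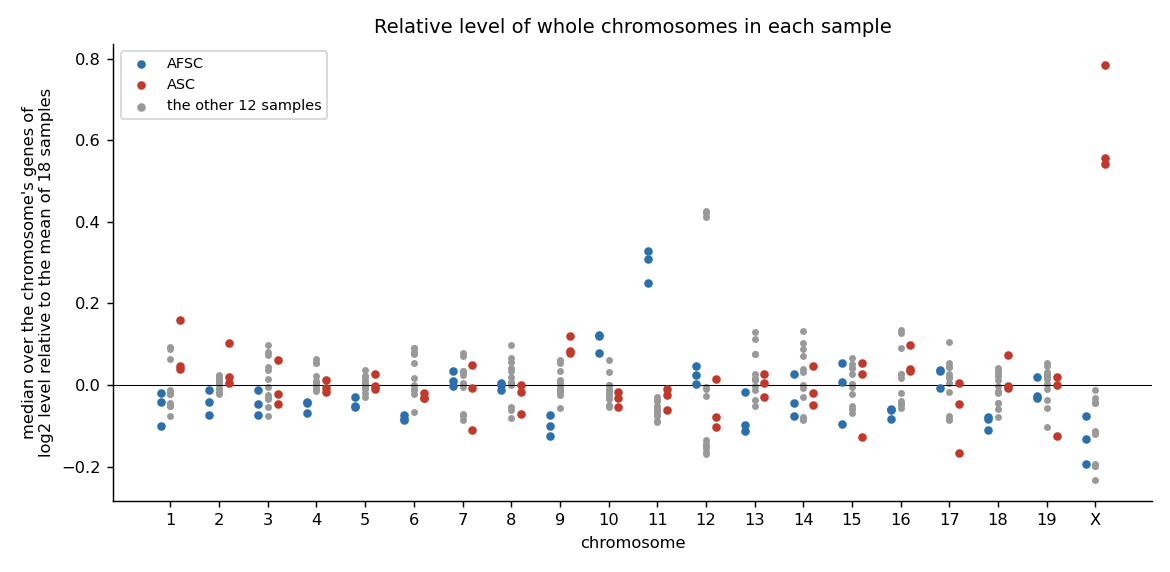
Each point is 1 sample's median, over the genes of a chromosome with at least 30 counts in all samples, of the log2 level relative to the mean of the 18 samples, for AFSCs (blue), ASCs (red) and the other 12 samples (grey). AFSCs lie at 0.25 to 0.33 on chromosome 11, above all other samples, and ASCs at 0.54 to 0.78 on the X, above all other samples.

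The step from AFSCs to ASCs was set beside the difference between naive ESCs and primed EpiSCs, which addresses how far the change of medium follows the primed to naive axis. In that pair 3713 genes (22.0%) were higher and 3216 (19.0%) lower in ESCs. Of the 3829 genes higher in ASCs, 2291 were also higher in ESCs (59.8% of the former, 61.7% of the latter), 282 were lower and 1256 were not called. Of the 2830 lower in ASCs, 1546 were also lower in ESCs (54.6% and 48.1%), 127 were higher and 1157 not called. The naive list was higher in 20 and lower in 1 of 21 genes in both pairs, and the Rhox list in 18 of 18 in both.

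A test of the difference between the steps called 2686 genes (15.9%) with a larger and 2256 (13.3%) with a smaller or more negative log2 fold change in ASCs against AFSCs than in ESCs against EpiSCs. In the BMP list 15 genes were higher and 1 lower in this test. BMP genes were 16 higher and 2 lower in ASCs, and 9 higher and 12 lower in ESCs. Id1 rose by 3.37 in ASCs and had -1.75 in ESCs against EpiSCs (difference 5.13 ± 0.40), and Id3 had 2.40 and -1.94 (difference 4.33 ± 0.30). The formative and primed list fell less in ASCs, with 14 genes higher in the test and 0 lower by edgeR (0 by DESeq2, and 1 lower at an unadjusted p under 0.05). Otx2 had -1.38 in ASCs and -3.82 in ESCs, Zic2 -1.40 and -3.79, and Eomes of the streak list -2.91 and -7.57. Wnt genes were 15 higher and 3 lower in the test, FGF and ERK genes 14 and 0 (0 lower by DESeq2, and 3 lower at an unadjusted p under 0.05), imprinted genes 18 and 6 and glycolysis genes 13 and 4. For LIF and STAT3 genes it was 1 and 11, so that this list rose less from AFSCs than it differed between the EpiSCs and ESCs. Socs3 had 2.88 and 3.92, and Pim1 1.97 and 4.21. EpiSCs and ESCs differ from each other in medium as well as in state, and these cannot be told apart. On chromosome 12 the median log2 level relative to the mean of the 18 samples was 0.41 to 0.43 in the 3 EpiSC samples and -0.17 to -0.16 in the 3 ESC samples, and its part in these differences was not tested.

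The move of ESCs into the same ABCL medium gives the other matched comparison, in which the medium is shared and the starting cell is naive. In ESC-ASCs against ESCs 3266 genes (19.3%) were higher and 2887 (17.1%) lower. All 6 tested Y-linked genes were higher in ESC-ASCs than in ESCs (median log2 fold change 9.07), which a change of medium does not bring about. The sequenced ESC-ASCs therefore need not come from the sequenced ESCs. ESC-ASC samples also had 17813619 to 18071600 counts. Cell line, sex chromosomes and depth cannot be told apart from medium in this pair, and below "from ESCs" means only the comparison with the ESC samples. Of the 3829 genes higher in ASCs, 1053 were also higher in ESC-ASCs (27.5% and 32.2%) and 932 were lower (24.3% and 32.3%). Of the 2830 lower, 557 were also lower (19.7% and 19.3%) and 663 were higher (23.4% and 20.3%). The test of the difference called 4116 genes (24.4%) in the positive and 3516 (20.8%) in the negative direction.

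Glycolysis genes were mostly higher in both pairs. Of 27 tested, 20 were higher and 1 lower against AFSCs, and 17 were higher and 0 lower against ESCs by edgeR. DESeq2 also called 0 lower against ESCs, and 0 were lower at an unadjusted p under 0.05. The test of the difference found 3 higher and 5 lower. Pdk1 rose by 2.71 and 5.43, Pgk1 by 2.50 and 3.05 and Slc16a3 by 4.63 and 3.69 on the log2 scale. Meiotic genes were 33 higher and 1 lower of 36 from AFSCs and 22 higher and 4 lower from ESCs, and 29 were higher in the test of the difference. Two-cell genes were 30 and 19 higher of 30, and 21 were higher in that test. Zscan4f had a mean level of 83.3 in ESC-ASCs and 12.1 in ESCs. Naive genes showed the opposite, with 20 of 21 higher from AFSCs and 2 higher and 11 lower from ESCs, as did Rhox genes (18 higher, then 18 lower) and Hox genes (17 higher, then 1 higher and 13 lower). Mean levels of Klf4 were 786 in ESCs and 432 in ESC-ASCs. MHC class I genes were 11 lower and 2 higher from AFSCs and 1 lower and 9 higher from ESCs, and 15 differed in the negative direction.

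**Figure D5:**
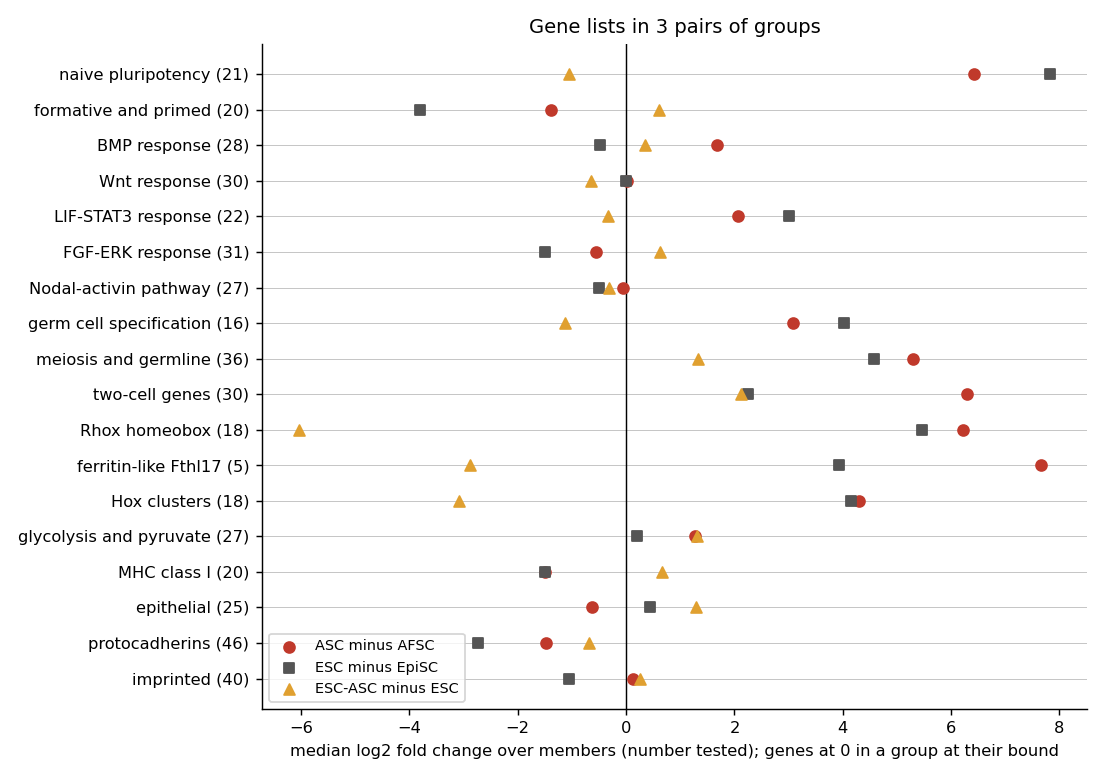
Points give the median log2 fold change over the tested members of each list (number in brackets) for ASCs minus AFSCs, ESCs minus EpiSCs and ESC-ASCs minus ESCs, with genes at 0 in a group set to their bound against 3 counts. The naive list is at 6.43, 7.82 and -1.06 in the 3 pairs, the BMP list at 1.69, -0.49 and 0.35, and the glycolysis list at 1.28, 0.19 and 1.31.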

How the data were processed

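RNA-seq covered 18 samples in 6 groups. Per the labels and the study's methods, the authors aligned reads to GRCm38 with TopHat2 and counted fragments per Ensembl 86 gene with featureCounts, without regard to strand and with multi-mapping and multi-overlapping fragments counted at each place, so that near-identical and overlapping genes share counts. The deposited values are raw counts per gene. Groups follow the sample labels.

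A gene was kept if 3 or more samples held 10 or more counts. All 18 samples were fitted together with edgeR 4.0.16 (R 4.3.3, limma 3.58.1), using TMM scaling and the quasi-likelihood test with Benjamini-Hochberg adjustment over all 16901 genes. DESeq2 1.42.0 gave size factors for levels and an alternative test. Other alternatives were other scalings, count filters, the 6 samples alone, a replicate block and leaving out samples. Tables and plots were made with Python 3.11.15, pandas 2.3.3, SciPy 1.17.1 and matplotlib 3.10.9. The procedure was tested on simulated data.

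The genes named are the 12 largest and 12 smallest log2 fold changes among strongly changed genes without overlap, the 10 largest gains and losses in CPM, members of gene lists, and the 8 largest differences in each direction between pairs. Some items are not reported here. Members and lists were chosen with earlier results of these data known. Columns for gene position and length were used as annotation. Depth limits weakly expressed genes, and intervals and floors cover counting error only.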

Additional observations from a re-analysis of the deposited data

Results flagged for a closer look

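The log2 fold change of ASCs against AFSCs differed from that of another pair of groups for 32 named genes, by edgeR's test of the difference. All are the most extreme called genes of their contrast, and many rest on a group with no counts, so that the size depends on the fit and is not a bound.

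Against the step from EpiSCs to ESCs, the difference was 13.79 for Emilin3, 13.68 for Matn3, 11.23 for both Nmral1 and Ddit4l, 10.40 for Aard, 9.73 for the growth factor Igf2, 9.70 for Gm28513 and 9.65 for Nxph4. It was -11.11 for Zfp976, -11.04 for the chemokine Ccl2, -9.95 for the quinone reductase Nqo1, -9.94 for Zfp975, -9.91 for Vgll3, -9.33 for caveolin, Cav1, -8.73 for AA986860 and -8.64 for Sh3rf2. Gm28513 and Zfp976 were not called in ASCs against AFSCs (log2 fold changes -0.22 and 0.24), so their differences lie in ESCs against EpiSCs.

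Against the comparison of ESC-ASCs with ESCs, the difference was 17.56 for Rhox2a, 17.41 for Magea8, 17.40 for Calcoco2, 17.23 for Gm31693, 17.14 for both Rhox4g and Stk33, 17.12 for Rhox2b and 17.02 for Pramel7. It was -12.10 for Cyp4f15, -11.90 for Fgf5, -11.61 for Glyatl3, -11.50 for the receptor gene Cntfr, -11.24 for H2-Q2, -10.75 for Ccdc194, -10.72 for Vrtn and -10.69 for Gm16233. The Rhox2 and Rhox4 genes share reads with their copies. The direction and the call held in all 541 values computed under the alternatives.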

How the results depend on the processing

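The counts of 3829 higher and 2830 lower genes stayed within 1.5 times under other scalings, DESeq2 (3856 and 2714), the 6 samples alone, no count filter and the omission of X- and Y-linked, mitochondrial or chromosome 11 genes. They moved to 1761 and 1603 with at least 10 counts in each of the 6 samples, which removes genes silent in 1 group, and lower genes to 5273 without a fold threshold. Leaving out 1 sample gave 3508 to 3912 higher and 2558 to 2909 lower, and leaving out both samples numbered 1, added after seeing the data, 3446 and 2415. The count filter was applied again in these fits, so genes expressed only in a group that lost a sample could not pass. The X-linked difference was 1.26 to 1.34 with 1 sample left out and 0.78 with the count filter.

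Whether the replicate numbers pair the samples was not settled. The 3 same-numbered pairs of an ASC and an AFSC sample correlated at -0.03 to 0.26 and the 6 others at -0.38 to 0.29. These ranges overlap and rest on few pairs, so they cannot exclude a batch shared by same-numbered samples. A replicate block gave 3869 higher and 2811 lower.

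Of 540 called genes followed, 71 lost their call under at least 1 alternative, 47 without both samples numbered 1 and 8 with DESeq2. With both samples numbered 1 left out, Gapdh, which was not called, reversed to 0.0392. With 1 sample left out, log2 fold changes crossed 0 for Gm28513 (-0.3666 to 0.0114), Zfp976 (-0.1247 to 0.821) and Cdh1 (-0.35 to 0.1285), which were not called. Among called genes they crossed 0 for mt-Co2 (-1.9345 to 0.2245), mt-Atp8 (-2.9122 to 0.3584), mt-Nd4 (-2.662 to 0.007), mt-Nd6 (-2.7718 to 0.0614), mt-Tw (-2.1636 to 0.319) and mt-Ta (-2.0826 to 0.0496), each at its highest without AFSC replicate 1. The cause was not tested. Counts of lists moved by over 1.5 times in 45 of 1104 cases, 12 of them without both samples numbered 1. Depth limits genes near 10 counts, whose fold changes against groups at 0 have no upper bound here.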

Other observations

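Genes that differed in the same direction in both comparisons of cells in ABCL medium were listed after the values were seen. They were not tested as a group, and ESC-ASCs may differ from ESCs in cell line as well as in medium. Without a limit on level, 1053 of the genes higher in ASCs (27.5%) were also higher in ESC-ASCs and 932 (24.3%) were lower. Of the genes lower in ASCs, 557 (19.7%) were also lower and 663 (23.4%) were higher. Of all tested genes, 19.3% were higher and 17.1% lower in ESC-ASCs than in ESCs. With levels above the study's threshold in both pairs, 644 genes were higher in ASCs and in ESC-ASCs, and 384 were lower in both. Among the former, the extracellular matrix gene Matn3 had log2 fold changes of 5.85 and 10.27, the MHC class II gene H2-Ab1 5.16 and 5.35, the iron carrier Trf 4.54 and 5.30, Baiap2l1 4.52 and 6.86, Prss50 6.02 and 4.85 and the piRNA gene Mael 9.57 and 4.45. Among the latter, S100a4 had -4.58 and -5.79, the interferon-induced Isg15 -4.19 and -6.21, the Nodal coreceptor gene Cfc1 -4.28 and -3.60 and the interferon-induced GTPase Irgm1 -3.13 and -4.92. Over the AFSC samples Mael had no count, Prss50 had 1 and Matn3 had 3, and S100a4 had 2 over the ASC samples. The sizes of their first values therefore depend on the fit and are not bounds.

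A search for genes with at most 2 counts in each AFSC sample and at least 30 in each of the other 15 samples found, among others, Hexa, Nmral1, Klhl22 and Galm. For ASCs in place of AFSCs the search found 0, and with high and low exchanged it found 0 for either group. Hexa encodes a lysosomal hexosaminidase subunit and Galm an enzyme of galactose use.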
